A study of Gallus gallus with 2 samples.

Results

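The baseline transcriptome of the chick prosencephalon was read from 4 single-dye arrays of embryos cultured with the solvent dimethyl sulfoxide (DMSO), which are 4 of the 8 arrays in the series. They were chosen by their label alone. Chick embryos were placed in roller culture with DMSO for 16 hours and harvested at about stage HH13. The tissue was the rostral part of the head in front of the mesencephalon, with the anterior forebrain, the optic vesicles and the tissue that covers them, and the prosencephala of several embryos were pooled for each array. Embryos without solvent were not analysed here, and the arrays of the other condition, DAPT, were not analysed here. All 4 arrays share the culture and the solvent, so that the values below describe a cultured forebrain and its attached tissues, not one grown in the egg.

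At this stage the prosencephalon is a neuroepithelial tube that is being divided into telencephalon, optic vesicles, hypothalamus and diencephalon. Transcription factors such as SIX3, PAX6 and NKX2-1 mark these territories, and secreted SHH, FGF, BMP and WNT proteins from its edges and from the underlying mesoderm pattern them. Most of its cells are dividing progenitors kept in that state by Notch signalling, in which a ligand on one cell activates a receptor on its neighbour and induces HES and HEY repressors, and the first neurons appear among them.

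A level is the log2 of a spot's background-corrected signal minus the median of its array, so that 0 is the signal of the median probe. A gene was read from its brightest probe, and is called detected where at least 1 probe was flagged well above background on all 4 arrays, partly detected where this held on some arrays or for different probes, and not above background where no probe was flagged on any array. Detected genes with a mean level of at least 4 are called bright and those with a mean level below 0 are called dim. Probes differ in how well they bind, so a level describes a probe and does not rank genes by the amount of their RNA. In a dissected tissue, moreover, fewer cells of a type and less RNA per cell cannot be told apart.

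Of 10822 named genes, 9807 were detected (90.6%), 646 were partly detected and 369 were not above background (3.41%). Most names came from the authors' report, and 81.29% of the probes outside it were above background on no DMSO array. The shares of all named genes therefore depend on which probes were named, and are not shares of all genes on the array. Bright genes numbered 3035 (28.0%) and dim genes 1973 (18.2%), and the median level of the detected genes was 2.60. Arrays 1 and 2 lay on slide 1 and arrays 3 and 4 on slide 2. Spots well above background made up 74.4% to 78.7% of an array. The slides had been scanned differently, at a pixel size of 5 µm on slide 2 and 3 µm on slide 1. The signal at which a spot saturates also differed, at 779340 on slide 2 and 65527 on slide 1. Slide 2 had no saturated spot, and the slide 1 arrays had 311 and 351. The study's methods describe separate sets of embryos, each pooled within its own culture, but the GEO labels list the 4 arrays under 1 sample and tie no set to an array. Each SD below measures the spread over these 4 arrays, with the difference between the slides included. Each p-value of the slide comparison rests on the spread between arrays of the same slide, drawn toward that of all probes.

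Of the 691 genes in 28 lists of tissue markers and pathways, 580 were read, meaning that a named probe matched them. Of these 580 genes, 502 were detected, 36 partly detected and 42 not above background. A gene called not read below had no matching named probe, which does not show that the array lacks a probe for it. Every gene read was detected in 9 lists, among them neural progenitors, hypothalamus, surface ectoderm, neural crest, mesenchyme and the WNT pathway. HOX and hindbrain genes were detected in 8 of 22 cases and genes of other organs in 16 of 35, against 90.6% of all named genes.

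**Figure D1:**
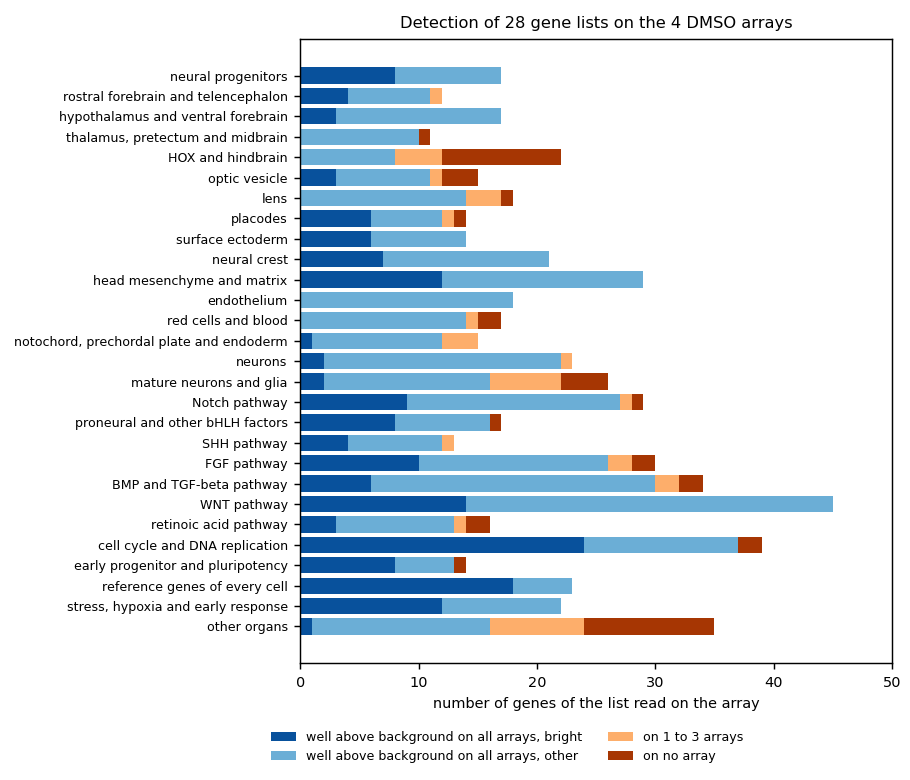
Number of genes read in each of the 28 lists, split by colour into detected and bright (dark blue), detected and not bright (light blue), flagged on 1 to 3 arrays (orange) and flagged on none (brown). The HOX and hindbrain list (8 of 22 detected) and the list of other organs (16 of 35) hold the longest brown segments, with 10 and 11 genes.

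Every one of the 17 neural progenitor genes read was detected, and 8 of them were bright, beside 90.6% and 28.0% of all named genes. NES, an intermediate filament protein of neural stem cells, read 6.47, 6.55, 6.46 and 6.97 on arrays 1 to 4, and CDH2, the cadherin that joins neuroepithelial cells, read 6.47, 6.59, 6.87 and 6.78. Both varied little between arrays (SD 0.24 and 0.18). FABP7, a lipid carrier of radial glia, and MSI1, an RNA-binding protein of progenitors, had means of 6.15 ± 0.55 and 6.33 ± 0.16 (SD, n = 4 arrays, as for all means below). Of the SOXB1 factors, which hold cells in the neural progenitor state, SOX1 read 3.95 ± 0.24, SOX3 read 5.41 ± 0.73 and SOX2 read 1.88 ± 0.61, with SOX2 lowest on array 3 at 1.13 and highest on array 4 at 2.61. PROM1, an apical membrane protein, was the only dim member at -0.42 ± 0.32. ZIC1 and ZIC2, zinc finger factors of the dorsal and rostral neural plate, were detected on all arrays with means of 1.37 ± 0.46 and 0.56 ± 0.26.

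Genes of the rostral forebrain were detected in 11 of 12 cases, beside 90.6% of all named genes. OTX2, required for forebrain and midbrain, read 5.87, 5.93, 6.81 and 6.62 on arrays 1 to 4, and FEZF2, a factor of the rostral forebrain, read 4.52, 4.37, 5.70 and 5.51. For both genes the arrays of slide 2 lay above both arrays of slide 1. SIX3, which represses posterior fates in the rostral neural plate, read 3.81 ± 0.30, and HESX1, a repressor of the anterior neural ridge and the pituitary primordium, read 2.95 ± 0.14. EMX2, a factor of the dorsal telencephalon, was detected at 2.47 ± 0.12 and its relative EMX1 was dim at -2.17 ± 0.26. DLX1, a factor of the ventral telencephalon, was also dim, and its 4 values ran from -2.83 to -0.85. EOMES, a T-box factor of cortical intermediate progenitors, passed the background flag on 1 of 4 arrays, and OTX1, DLX2 and TBR1 were not read. SIX3, OTX2 and PAX6, markers of the labelled tissue, were detected on each array. With 90.6% of all named genes detected, this does not test the identity of the tissue.

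Hypothalamic and ventral forebrain genes were detected in all 17 cases read, 3 of them bright and 6 dim. The shares of all named genes were 90.6%, 28.0% and 18.2%. SHH, the ventral morphogen, read 4.60, 4.76, 3.43 and 4.46, lowest on array 3. NKX2-1, which defines the hypothalamus, read 1.27 ± 0.36, and NKX2-2, a factor of its border zone, read 2.44 ± 0.71 with both slide 2 arrays below both slide 1 arrays. SIX6, a factor of the hypothalamus and retina, and FOXD1, a forkhead factor of the ventral forebrain and temporal retina, had means of 3.59 ± 0.20 and 3.90 ± 0.30. BSX, a homeobox gene of hypothalamic neurons, was detected at 2.10 ± 0.29. CHRDL1, a BMP antagonist, read 0.49 ± 0.24. Dim members included POMC, the precursor of melanocortins, at -1.63 ± 0.62, SIM1, a factor of the paraventricular nucleus, at -2.26 ± 0.62, OTP, a factor of neuroendocrine neurons, at -0.89 ± 0.90, and NR5A1, a factor of the ventromedial nucleus, at -0.55 ± 0.60. TBX2 was dim at -2.02 ± 0.26, and TBX3, the related T-box repressor of the ventral hypothalamus, ran from -1.36 on array 3 to 0.96 on array 1. The gene that the array design names DBX1 and the RefSeq table LEUTX was bright at 4.04 ± 0.14.

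Of the optic vesicle genes, 11 of 15 were detected, beside 90.6% of all named genes. PAX6, the factor of eye field and forebrain, read 4.72, 4.98, 5.50 and 5.67, and VSX1, a homeobox gene of retina, read 4.31, 3.90, 5.58 and 5.56. DCT, a pigment enzyme, read -1.13, -0.87, 0.31 and 0.31. In these 3 genes the arrays of slide 2 were the higher ones. MITF, which specifies the pigment epithelium, was detected at 0.76 ± 0.20, and PMEL, a melanosome protein, at 0.04 ± 0.14. ALDH1A3, a retinoic acid enzyme of the eye, was bright at 4.28 ± 0.56. The later markers TYR, the melanin-making tyrosinase, and ATOH7, the factor of retinal ganglion cells, were not above background on any array. TBX5, a factor of dorsal retina that also patterns the heart, read -0.54 and -1.32 on the slide 2 arrays and 1.62 and 1.67 on the slide 1 arrays. RAX, VAX2 and CRX were not read.

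Lens genes were detected in 14 of 18 cases and none was bright, beside 90.6% and 28.0% of all named genes. The beta-crystallins CRYBA1 and CRYBB2 read 2.54 ± 0.78 and 2.45 ± 0.46, while CRYBB1 passed the flag on 1 of 4 arrays. ASL1, whose product is delta-crystallin, the main crystallin of the embryonic chick lens, read 2.22, 2.02, 2.35 and 2.65. The alpha-crystallins CRYAA and CRYAB had means of -2.17 ± 0.66 and 0.26 ± 0.39. BFSP1, a beaded filament protein of differentiated lens fibres, was not above background.

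Genes of more caudal brain were read next. In the list of thalamus, pretectum and midbrain, 10 of 11 genes were detected and none was bright, beside 90.6% and 28.0% of all named genes. TCF7L2, a WNT effector of the thalamus, read 3.77 ± 0.11, PAX7, a factor of dorsal midbrain and of cranial neural crest, read 3.22 ± 0.20, and PAX2, a factor of the midbrain boundary and the optic stalk, read 2.52 ± 0.49. IRX1, LMX1B and GBX2, which act in diencephalon, midbrain and the boundary to the hindbrain, had means of 2.25, 1.08 and 1.03. PAX3 and WNT1, genes of the dorsal neural tube, were dim at -0.87 ± 0.38 and -2.20 ± 0.67, and PAX5, a factor of the midbrain-hindbrain boundary, was not above background at -5.46, -4.76, -5.10 and -5.28. EN1 and EN2 were not read.

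HOX genes, which pattern hindbrain and spinal cord and are not known from the forebrain, were few among the detected genes. Of 22 genes in the HOX and hindbrain list 10 were not above background, 4 were partly detected and 8 were detected, none of them bright. Among all named genes, 3.41% were not above background, 90.6% were detected and 28.0% were bright. HOXA2 and HOXB1, the hindbrain members, read -4.97 ± 0.79 and -5.54 ± 0.25. Detected members were HOXA4 at -1.32 ± 0.47, HOXD3 at -0.85 ± 0.36, HOXA9 at 1.33 ± 0.73 and HOXA7, which read -3.37 and -2.71 on the slide 2 arrays and 0.32 and 0.68 on the slide 1 arrays. HOXD13 read -0.01 on array 4, where 1 probe passed the flag, against -5.15, -5.00 and -4.55 on the other arrays. The number of detected HOX and hindbrain genes was 14 of 22 with the image analysis's less strict flag and 5 where most of a gene's probes had to pass.

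**Figure D2:**
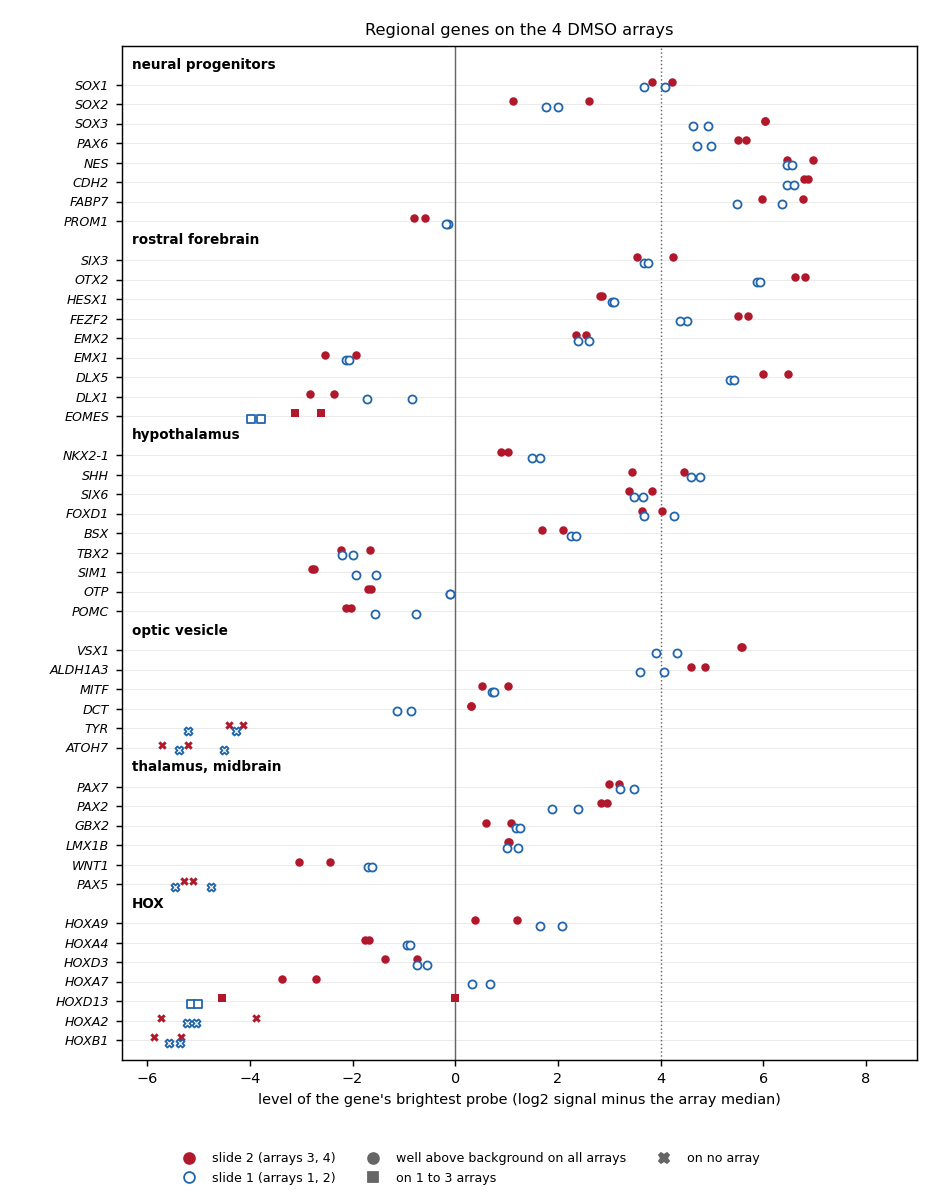
Level of the brightest probe (log2 signal minus the array median) of regional forebrain, eye, midbrain and HOX genes, with slide 2 arrays as filled and slide 1 arrays as open symbols, and with squares and crosses for genes flagged on 1 to 3 arrays or on none. OTX2 and FEZF2 lie right of the dotted line at 4, the bright threshold, while HOXB1 and PAX5 lie near -5.

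Notch pathway genes were detected in 27 of 29 cases, 9 of them bright and 5 dim. The shares of all named genes were 90.6%, 28.0% and 18.2%. The receptor NOTCH1 read 4.45, 4.35, 4.75 and 4.59, and NOTCH2 read 0.05, 0.00, -0.08 and -0.82. Of the ligands, JAG1 was detected at 3.73 ± 0.23 and DLL1, the ligand of nascent neurons, at 0.90 ± 0.53, while DLL4 was partly detected, with its probe flagged on 3 of 4 arrays. Of the glycosyltransferases that tune ligand choice, LFNG read 6.72 ± 0.29 and RFNG read 4.16 ± 0.36, and MFNG was not above background on any array. RBPJ, the DNA-binding partner of the activated receptor, read 2.71 ± 0.48. Of its target repressors, HEY1 was bright at 5.76, 5.76, 6.04 and 6.39, and HES5 read 2.43, 2.36, 1.99 and 2.63. Of other genes of the HES family, HES4 read 2.54 ± 0.28 and HES6 read 1.39 ± 0.40. HEYL, a relative known from vascular tissue in the mouse, read -2.04 and -1.54 on the slide 2 arrays and 0.59 and 0.35 on the slide 1 arrays. HES1, HEY2 and NRARP were not read, although the study reports an array fold change for NRARP.

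Among proneural and other bHLH factors 16 of 17 genes were detected, beside 90.6% of all named genes. NEUROG2, which drives neuronal commitment, read 3.01 ± 0.37. NEUROG1 was dim at -1.73 ± 0.60, as were NEUROD4 at -2.24 ± 0.21 and ATOH1, a factor of dorsal hindbrain, at -2.31 ± 0.42. NEUROD1, a factor of differentiating neurons, ran from 0.97 on array 3 to 2.98 on array 1. OLIG2, a factor of ventral progenitors, was bright at 4.46 ± 0.46, and so was ID1, an inhibitor of bHLH factors and a BMP target, at 7.97 ± 0.24 with a saturated spot on 1 array.

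Of the genes of young neurons, 22 of 23 were detected, beside 90.6% of all named genes. TUBB3, the neuronal tubulin, was bright at 6.42, 6.44, 6.70 and 6.41, and NEFL, a neurofilament, at 4.68, 4.52, 5.34 and 5.54. ELAVL4, an RNA-binding protein of neurons, and DCX, a microtubule protein of migrating neurons, had means of 3.87 ± 0.41 and 3.54 ± 0.49. STMN2, which regulates microtubules in growing axons, read 1.96 ± 0.70, GAP43, a growth cone protein, was dim at -1.41 ± 0.68, and SNAP25, a synaptic vesicle fusion protein, was flagged on 3 of 4 arrays. Of the genes of mature neurons and glia, 16 of 26 were detected and 10 of these were dim, beside 90.6% and 18.2% of all named genes. SLC17A6, the vesicular glutamate transporter, was not above background on any array. Members above the median included SST1, the RefSeq name of the gene the design lists as somatostatin, a neuropeptide, at 5.35 ± 0.58, and NPY, another neuropeptide, at 3.39 ± 0.53.

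In the SHH pathway 12 of 13 genes were detected, beside 90.6% of all named genes. SMO, the signal transducer, read 5.38 ± 0.35 and GLI3, the transcription factor that acts mainly as a repressor in the absence of SHH, read 5.36 ± 0.39. Of the pathway's own targets, the receptor PTCH1 read -0.03 ± 0.54, HHIP, a membrane protein that binds SHH, read 3.19 ± 0.38, and GLI1 was flagged on 2 of 4 arrays, its single probe reading from -3.57 to -2.54 over the arrays.

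FGF pathway genes were detected in 26 of 30 cases, 10 of them bright, beside 90.6% and 28.0% of all named genes. FGF8, the signal of the anterior neural ridge, read 4.17, 4.38, 4.57 and 4.45, and FGF18 read 4.11, 4.18, 4.37 and 4.55. FGF4 was not above background. Of the receptors, FGFR1 read 7.47, 7.59, 7.56 and 8.19 and FGFR3 read 5.53 ± 0.06, while FGFR4 was partly detected. Targets of the pathway included ETV5 at 6.43 ± 0.20, DUSP6, a phosphatase that dampens it, at 6.22 ± 0.35 over the 3 arrays with a usable spot, and SPRY1, a feedback inhibitor, at 4.49 ± 0.72. SPRY4, another inhibitor of the family, was not above background.

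The BMP and TGF-beta pathway had 30 of 34 genes detected, beside 90.6% of all named genes. BMP7, a ligand of ventral forebrain and of prechordal mesoderm, read 3.80 ± 0.22 and BMP4, a dorsal ligand, was dim at -0.79 ± 0.52, while BMP5 was not above background. NODAL, a ligand of the early axis, read 2.87 and 3.15 on the slide 2 arrays and 4.40 and 4.61 on the slide 1 arrays. The antagonist NOG read 1.71 ± 0.28 and GREM1 was dim at -1.98 ± 0.86. TGFB3, a ligand, and ACVR2B, an activin receptor, were bright at 6.10 ± 0.16 and 7.60 ± 0.30.

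All 45 WNT pathway genes read were detected, 14 of them bright and 9 dim, beside 90.6%, 28.0% and 18.2% of all named genes. Among ligands WNT4 read 5.67 ± 0.74, WNT5A read 4.38 ± 0.21, WNT8B, a gene of the dorsal diencephalon and cortical edge, read 0.17 ± 0.42 and WNT7A was dim, from -3.15 on array 3 to -0.61 on array 1. All 10 frizzled receptors were detected and 6 were bright, such as FZD7 at 6.31 ± 0.26, while FZD5, the receptor of the eye field and hypothalamus, read 0.67 ± 0.54. CTNNB1, the beta-catenin that carries the signal, read 8.15 ± 0.15 with a saturated spot on 1 array, and AXIN2, a feedback target, read 5.48 ± 0.11. Of the secreted inhibitors, SFRP2 read 5.40 ± 0.56 and DKK2 read -2.80 ± 0.10. The gene that the array design names DKK1 and the RefSeq table DKK4 read 3.40 ± 0.33.

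For retinoic acid, 13 of 16 genes were detected, beside 90.6% of all named genes. The synthesizing enzymes read 4.28 ± 0.56 for ALDH1A3 and 1.69 ± 0.17 for ALDH1A2, and ALDH1A1, the enzyme of dorsal retina, was not above background at -5.00 ± 0.06. The degrading enzymes CYP26C1 and CYP26A1 had means of 3.31 ± 0.60 and -1.01 ± 0.10. CRABP1, an intracellular binding protein, and STRA6, the receptor through which cells take up retinol, were bright at 7.85 ± 0.37 and 6.43 ± 0.12, while RBP4, the retinol carrier of plasma, was not above background.

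**Figure D3:**
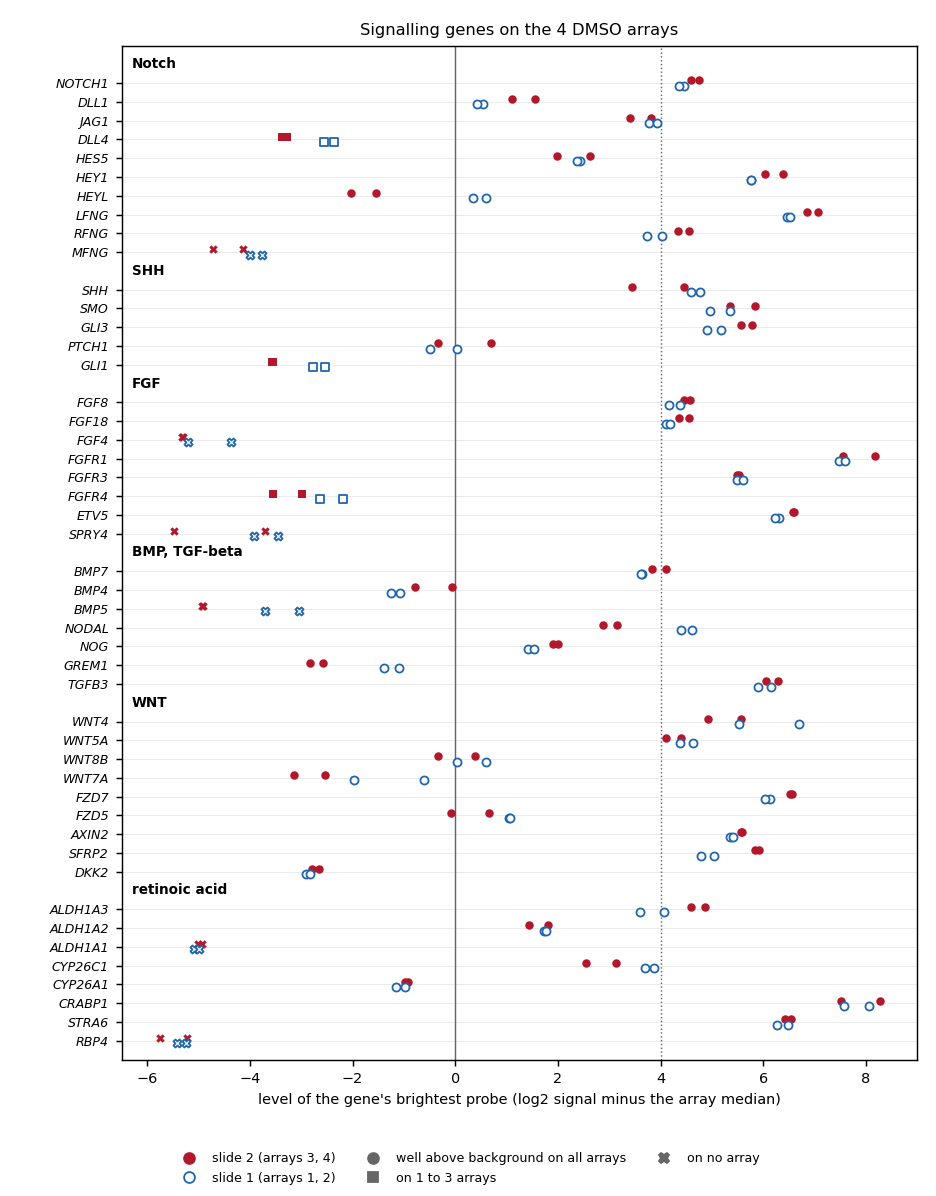
Level of the brightest probe (log2 signal minus the array median) of signalling genes on the 4 DMSO arrays, in the order Notch, SHH, FGF, BMP and TGF-beta, WNT and retinoic acid, with slide 2 as filled and slide 1 as open symbols. Within a pathway, bright members such as HEY1, FGFR1 and CRABP1 stand beside members flagged on no array, such as MFNG, FGF4 and RBP4.

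Genes of dividing cells were bright in 24 of 39 cases, against 28.0% of all named genes. TOP2A, the topoisomerase of proliferating cells, read 6.97, 7.32, 7.96 and 8.28, CDK1, the mitotic kinase, read 7.22, 7.60, 7.66 and 7.78, and PCNA, the replication clamp, read 5.48, 5.98, 6.24 and 6.15. Array 1 was the lowest in each of these. CCND1, a cyclin of the first growth phase, read 5.14 ± 0.32, and MKI67 read 3.96 ± 0.35. CDKN2A and CDKN2B, inhibitors of the cell cycle, were the 2 members not above background. Of 14 genes of early progenitors 13 were detected and 8 were bright, beside 90.6% and 28.0% of all named genes. Bright ones included LIN28A, which blocks maturation of let-7 miRNAs, at 6.55 ± 0.43 and TRIM71 at 7.01 ± 0.19. SALL4 at 6.62 ± 0.32 and IGF2BP3, an RNA-binding protein of fetal tissues, at 7.93 ± 0.17 were bright as well. NANOG, a factor of pluripotent cells, was not above background.

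For tissue attached to the neural tube, all 14 surface ectoderm genes read were detected, beside 90.6% of all named genes, such as KRT8, a keratin of simple epithelia, at 5.11 ± 0.19, the gene the RefSeq table names KRT24 and the array design KRT19 at 7.14 ± 0.26, EPCAM, an epithelial adhesion protein, at 6.20 ± 0.32, CDH1, the epithelial cadherin, at 4.74 ± 0.22 and CLDN1, a tight junction protein, at 7.54 ± 0.25. TP63, which maintains epidermal progenitors, read 1.89 ± 0.14, and KRT5, a keratin of stratified epithelium, was dim at -1.76 ± 0.62. Placode genes were detected in 12 of 14 cases, 6 of them bright and 3 dim, beside 90.6%, 28.0% and 18.2% of all named genes. PITX1, a factor of oral ectoderm, read 4.75 ± 0.32 and GATA3 read 4.97 ± 0.45. DLX5, a factor of the anterior neural fold as well, read 5.82 ± 0.53. DLX3, its relative, was dim at -1.33 ± 0.66, as were PITX3 at -1.99 ± 0.38 and PAX3 at -0.87 ± 0.38. FOXI1 was not above background on any array, and FOXI3 was flagged on 1 of 4 arrays.

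All 21 neural crest genes read were detected, beside 90.6% of all named genes, with FOXD3, a factor of premigratory crest, at 4.10 ± 0.27, TFAP2B at 4.05 ± 0.27, SNAI2, which acts in delamination, at 3.65 ± 0.20 and TWIST1, a factor of cranial mesenchyme, at 3.06 ± 0.26. SOX10, a factor of migrating crest, read 4.52 and 4.62 on the slide 2 arrays and 3.06 and 3.06 on the slide 1 arrays. All 29 genes of mesenchyme and matrix were detected and 12 were bright, beside 90.6% and 28.0% of all named genes. Bright members included COL2A1 and COL1A1, fibrillar collagens, at 7.53 ± 0.44 and 6.95 ± 0.35, and FN1, fibronectin, at 5.31 ± 0.23. PDGFRA, a growth factor receptor of mesenchyme, read 0.62 ± 0.51. Endothelial genes were detected in all 18 cases and none was bright, beside 90.6% and 28.0% of all named genes. PECAM1 and CDH5, adhesion proteins of vessels, had means of 3.66 ± 0.35 and 3.56 ± 0.57, KDR, the VEGF receptor, read 2.64 ± 0.51 and TAL1, a factor of blood and vessel precursors, was dim at -2.45 ± 0.43.

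Of axial mesoderm and endoderm genes, 12 of 15 were detected and 1 was bright, beside 90.6% and 28.0% of all named genes. GSC, a factor of prechordal plate, read 3.15 ± 0.19, NOTO, a notochord factor, read 3.41 ± 0.59, and CHRD, the BMP antagonist of the axis, read 1.69 ± 0.53. TBXT, the notochord factor brachyury, was detected at 0.66 ± 0.35 and FOXA2, a factor of floor plate and endoderm, was dim at -0.91 ± 0.13. CER1, an antagonist of anterior endoderm, was flagged on 2 of 4 arrays. APOA1, an apolipoprotein, read 3.81 ± 0.68.

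Reference genes that all cells use were detected in all 23 cases, 18 of them bright and none dim. The shares of all named genes were 90.6%, 28.0% and 18.2%. ACTB, the cytoplasmic actin, read 9.42 and 10.15 on the slide 2 arrays and 8.13 and 8.14 on the slide 1 arrays, where its spot was saturated. YWHAZ, an adaptor protein gene with no saturated spot, read 7.53 and 7.58 on the slide 2 arrays and 7.32 and 7.41 on the slide 1 arrays. HPRT1, a purine salvage enzyme, read 2.88 ± 0.41. The 10 genes with the highest level, at 9.23 to 9.41, included RACK1, EEF1A1, RPLP1, GAPDH, ARIH1, RPL7A, RPS28, RPL4 and RPL6, mostly parts of the ribosome or factors that work with it. All 10 were saturated on both slide 1 arrays, so that their order has no meaning. Ribosomal protein genes made up 36 of the 100 genes with the highest level, and 42 of the 45 read were bright. ARIH1, a ubiquitin ligase, entered through 1 of its 7 probes, whose means ran from -4.02 to 9.36.

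Stress and hypoxia genes were detected in all 22 cases and 12 were bright, beside 90.6% and 28.0% of all named genes. HSPA5, a chaperone of the endoplasmic reticulum, read 8.98 and 9.50 on the slide 2 arrays and 8.10 and 7.70 on the slide 1 arrays, 1 of which was saturated, and ATF4, a factor of the integrated stress response, read 9.04 ± 0.71 with saturated spots on both slide 1 arrays. HIF1A, the hypoxia-regulated factor, read 5.42 and 5.40 on the slide 2 arrays and 4.24 and 4.33 on the slide 1 arrays. The immediate early genes FOS and EGR1 had means of 1.46 ± 0.45 and 1.15 ± 0.34, and VEGFA, a hypoxia target, read 1.79 ± 0.43. Embryos from the egg were not analysed here, and whether the culture raised any of these was not tested.

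Genes of other organs gave a reading of how far detection can be taken. Of 35 genes from muscle, liver, gut, pituitary, gonad and lymphocytes, 16 were detected, 8 partly detected and 11 not above background, and 9 of the 16 were dim. Among all named genes, 90.6% were detected, 3.41% were not above background and 18.2% were dim. GH, the growth hormone, was not above background at -5.24 ± 0.24. ALB, the serum albumin, was detected at -0.54 ± 0.51 and MYOD1, the factor of skeletal muscle, at -0.87 ± 0.77. TNNC2, a troponin of fast muscle, was the only bright member at 4.56, 4.36, 4.61 and 4.47, and ACTA1, the skeletal actin, read 2.81 ± 0.11. When most of a gene's probes had to pass, 6 of the 35 were detected, and with the less strict flag 27. Some gene families with roles outside the early brain were counted as well. Interleukins and their receptors were detected in 16 of 43 cases, beta-defensins in 7 of 11, acetylcholine receptor alpha subunits in 4 of 10 and olfactory receptors in 2 of 6. For all named genes the share detected was 90.6%.

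How far a level can be read was measured from genes with several probes. Among 3394 genes with at least 3 detected probes, the SD between the probes of a gene had a median of 1.58 and the SD of those probes between the 4 arrays a median of 0.316, and the SD between probes was the larger in 3272 genes. The range over probes had a median of 3.29. RPL7A, a ribosomal protein, ran from -1.40 to 9.32 over 4 probes, and EEF1B2, a translation factor, from -1.83 to 8.62 over 3. RPS16, PSAP and ATP5O followed with ranges of 9.93, 9.76 and 9.38. With the median over a gene's probes in place of the brightest probe, 1557 genes were bright and 3099 dim.

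**Figure D4:**
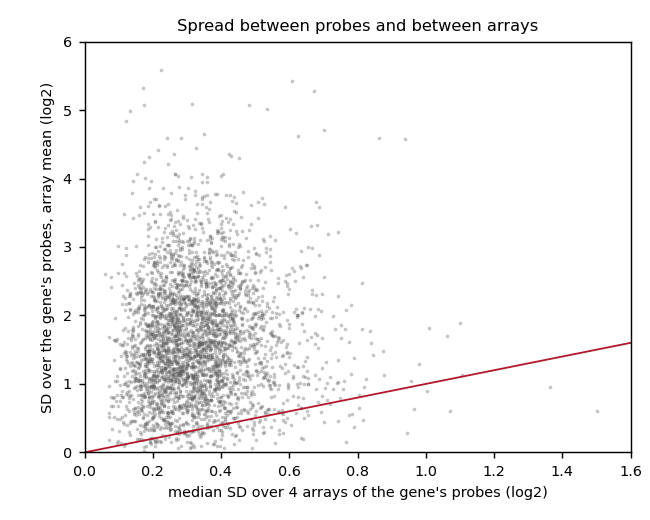
SD over the probes of a gene against the median SD over the 4 arrays of the same probes (both in log2 units), for the 3394 genes with at least 3 detected probes. The line marks equality, and 3272 genes lie above it.

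Arrays of the same slide resembled each other more than arrays of different slides. The median absolute difference of detected probes was 0.266 between the slide 2 arrays and 0.160 between the slide 1 arrays, against 0.412 to 0.476 across slides, and the correlation across probes, which are not independent replicates, was 0.986 within slide 2, 0.992 within slide 1 and 0.960 to 0.973 across slides. Slide 2 was set against slide 1 for each gene (limma, two-sided, Benjamini-Hochberg adjustment over 31270 probes, 2 arrays per slide). Of 9796 detected genes, 1333 were higher on slide 2 (13.6%) and 697 were lower (7.12%), with a median difference of 0.27. The direction of these counts followed the scaling, since 323 genes were higher and 1053 lower with the arrays set to a common 75th percentile, and 477 higher and 675 lower after quantile normalization. Single arrays moved the counts as well, to 55 higher and 143 lower without array 1, 23 and 123 without array 2, 1812 and 734 without array 3, and 1705 and 1157 without array 4. Arrays of different slides differ in slide, in scan setting and, by the methods, in the pool of embryos, and these cannot be told apart.

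Hemoglobin genes, which red blood cells make, set the slides apart most. HBA1, an alpha-type globin, read -3.30 and -0.53 on the slide 2 arrays and 6.83 and 7.18 on the slide 1 arrays, a difference of -8.92 ± 0.77 (SE, adjusted p = 0.00472). HBBR, a beta-type globin of the embryo, read -1.24 and 0.78 on slide 2 and 7.07 and 7.66 on slide 1, a difference of -7.60 ± 0.59 (adjusted p = 0.00381). HBZ, the embryonic zeta-type globin, read 0.14 and 0.86 on slide 2 and 5.07 and 5.51 on slide 1, a difference of -4.79 ± 0.29 (adjusted p = 0.00224). The arrays of the slides did not overlap in any of these. HBE, HBBA and HBAD, the other globins read, differed by -6.59, -6.56 and -5.69, and these 6 genes included the 5 with the largest SD of all named genes. Other probes of HBA1, which were not flagged on all arrays, ran the same way, with means of -3.52 and -4.49 on slide 2 and 3.31 and 3.90 on slide 1. SLC4A1, the anion exchanger of red cells, differed by -0.72 ± 0.24 at its brightest probe (adjusted p = 0.0721) and by -3.35 ± 0.21 at another probe detected on all arrays (adjusted p = 0.00224). GATA1, the erythroid transcription factor, read 0.75 and 0.96 on slide 2 and 1.70 and 1.67 on slide 1 (difference -0.83 ± 0.19, adjusted p = 0.0272), and PTPRC, the leukocyte protein CD45, read -2.69 and -2.59 against 0.08 and -0.02 (difference -2.67 ± 0.18, adjusted p = 0.00288). SPI1 and RUNX1, factors of white blood cells and their precursors, were not above background on any array, and CSF1R, the macrophage receptor, was flagged on 2 of 4.

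Of the 14 detected blood genes, 9 were lower on slide 2 and none higher, with a median difference of -1.75, beside 7.12% of all genes tested. The number lower was 10, 9 and 8 under the 75th percentile, quantile and normexp alternatives. It was 7 without array 1 and 7 without array 2, where GATA1 was no longer called (adjusted p = 0.182 and 0.161) at nearly the same difference (-0.81 and -0.85), 9 without array 3 and 10 without array 4.

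Of the 16 detected genes of other organs, 8 were lower on slide 2 and 1 was higher, beside 7.12% and 13.6% of all genes tested. MYH7, a myosin heavy chain, read 0.27 and 0.08 on slide 2 and 3.85 and 4.03 on slide 1 (difference -3.77 ± 0.19, adjusted p = 0.00224). NKX2-5, a heart factor, read -1.90 and -0.998 on slide 2 and 1.68 and 1.25 on slide 1 (difference -2.91 ± 0.32, adjusted p = 0.00752), and APOB, an apolipoprotein of yolk and liver, read -2.97 and -1.95 against 0.61 and 0.60 (difference -3.06 ± 0.33, adjusted p = 0.00698). For MYH7 only 1 of 4 probes was detected and for APOB 1 of 7, with the lowest probe means at -5.50 and -5.54. NKX2-5 had 1 probe. Other members of this list did not run the same way. ALB, the serum albumin, was higher on slide 2 by 0.835 (adjusted p = 0.0351), and with the 75th percentile no member was called higher. ACTA1, the skeletal actin, was not called (difference 0.184, adjusted p = 0.469). NPPA, a heart gene, read -0.14 and 0.53 on slide 2 and 0.46 and 0.43 on slide 1, so that its arrays overlapped. The differences of TBX5 and HOXA7 were -2.57 ± 0.28 and -3.55 ± 0.27 (adjusted p = 0.00698 and 0.00381). Both TBX5 arrays of slide 2, like both HOXA7 arrays, lay below those of slide 1. Of the 8 detected HOX and hindbrain genes, 4 were lower under each of the 4 scalings and none higher. The number lower was 1 without array 1, 1 without array 2, 4 of 9 without array 3 and 7 of 9 without array 4. For genes of other organs it was 3 of 16 without array 1, 3 of 17 without array 2, 8 of 17 without array 3 and 12 of 18 without array 4. Of the 18 endothelial genes, 1 was higher on slide 2 and 2 were lower, with a median difference of -0.06. ERG, an endothelial transcription factor, differed by 1.18 ± 0.18 (adjusted p = 0.0126), ENG, a TGF-beta co-receptor, by -1.82 ± 0.28 (adjusted p = 0.0119) and FLT4, a receptor of lymphatic vessels, by -0.84 ± 0.18 (adjusted p = 0.0236). The counts were 1 higher and 4 lower with the 75th percentile, 0 and 1 without array 1, 0 and 0 without array 2, 4 and 2 without array 3, and 2 and 6 without array 4. The part of blood, heart or trunk tissue in the slide difference was not tested.

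Of 11 detected optic vesicle genes 6 were higher on slide 2 and 1, TBX5, was lower, and of 11 rostral forebrain genes 4 were higher and 1, DLX1, was lower, beside 13.6% higher and 7.12% lower of all genes tested. VSX1 was higher by 1.46 ± 0.21 (adjusted p = 0.0112), DCT by 1.31 ± 0.19 (adjusted p = 0.0115) and FEZF2 by 1.16 ± 0.19 (adjusted p = 0.0137). Smaller differences were measured for ALDH1A3 (0.89), LHX2 (0.89), OTX2 (0.82) and PAX6 (0.74). Of these, ALDH1A3, LHX2 and OTX2 were not called after scaling to the 75th percentile or quantile normalization. Of all genes tested, 3.30% were higher and 10.75% lower with the 75th percentile, and 4.87% and 6.89% after quantile normalization. Under each of these scalings 3 optic vesicle genes and 1 rostral forebrain gene were higher. Without array 1 these counts were 2 and 0, and without array 2 they were 0 and 0. Of the 14 detected lens genes 1, CRYAB, was higher on slide 2 and 5 were lower, with a median difference of -0.40. Those lower were CRYBA1 by -1.30 ± 0.24, CRYAA by -1.08 ± 0.23, CRYGN by -0.93 ± 0.19, CRYGS by -0.85 ± 0.19 and CRYBB3 by -0.76 ± 0.20. The number of lens genes lower was 6 with the 75th percentile, 0 without array 1, 0 without array 2, 4 without array 3 and 7 without array 4. Among hypothalamic genes 4 of 17 were lower on slide 2, beside 7.12% of all genes tested, namely TBX3 by -1.80 ± 0.32, OTP by -1.55 ± 0.18, NKX2-2 by -1.15 ± 0.24 and SIM1 by -1.04 ± 0.21, and none was higher. The number lower was 6 with the 75th percentile, 1 without array 1, 1 without array 2, 4 without array 3 and 7 without array 4. In the neural crest list, with 2 of 21 genes higher and none lower (0 higher without array 2), SOX10 was higher by 1.51 ± 0.18 (adjusted p = 0.00853). In the Notch list 7 of 27 genes were higher and 3 lower, beside 13.6% and 7.12% of all genes tested, and with the 75th percentile or quantile normalization 0 were higher and 3 lower. Without array 1 the counts were 0 and 2, and without array 2 they were 1 and 2. HEYL was lower by -2.26 ± 0.23 (adjusted p = 0.00676) and DLL1 was higher by 0.86 ± 0.22 (adjusted p = 0.0365), a call that was lost under both other scalings.

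The 5 largest calls in the higher direction were AMER2, a WNT pathway regulator, SCIN, an actin-severing protein, HELB, a DNA helicase, and the ribosomal proteins RPS15 and RPLP1. AMER2 read -0.62 and -0.61 on slide 2 and -2.85 and -2.58 on slide 1 (difference 2.10 ± 0.19, adjusted p = 0.00519). SCIN read 2.22 and 1.97 against 0.19 and 0.18 (difference 1.91 ± 0.19, adjusted p = 0.00642). RPS15 and RPLP1 were saturated on both slide 1 arrays, where only a lower bound of their level is known, so that no difference is given. The same limit touches the reference genes, of which 9 of 23 were called higher on slide 2, beside 13.6% of all genes tested. The count was 8 with the 75th percentile (3.30% of all genes) and 3 after quantile normalization (4.87%), where 2 were lower. Their median difference was 0.65 with all arrays, 0.54 without array 1 and 0.67 without array 2. Of 141 tested genes with a saturated spot, 64 were called higher on slide 2 and none lower, and 109 were saturated on both slide 1 arrays and on no slide 2 array. Without saturated probes 6678 of 30907 probes were called, beside 6881 of 31270 with them.

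**Figure D5:**
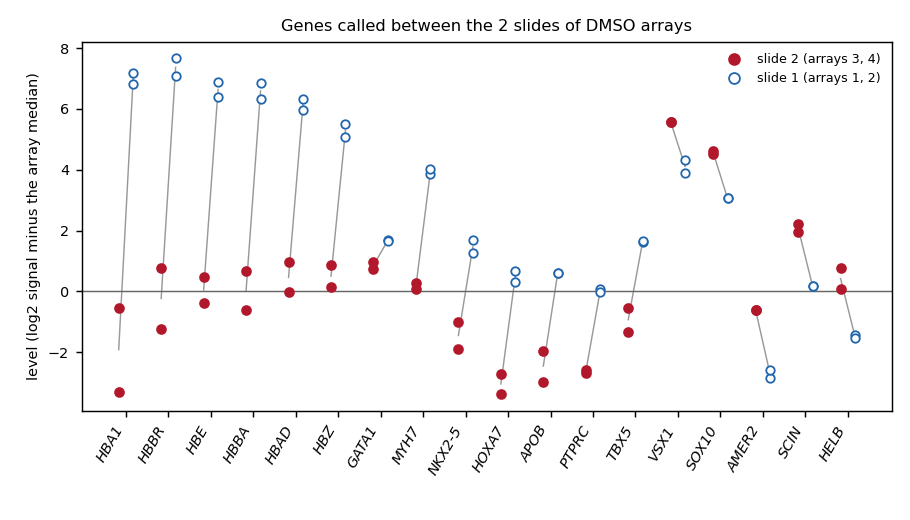
Levels (log2 signal minus the array median) of genes called between the slides, with the slide 2 arrays as filled and the slide 1 arrays as open symbols and lines between the slide means. The hemoglobin genes read -3.30 to 0.95 on slide 2 and 5.07 to 7.66 on slide 1, and VSX1 and SOX10 lie higher on slide 2.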

How the data were processed

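RNA of pooled chick prosencephala from DMSO culture was labelled with Cy3 and hybridized to 4 Agilent arrays. The deposited array files hold, per the file headers, the intensity of each spot after background correction by Agilent Feature Extraction 10.7.1.1, with no normalization between arrays. The authors' report for the series was used for gene names alone. Its other columns hold the authors' mean intensity and mean log2 level per condition and their fold changes and p-values, none of which was used. Its raw DMSO column equals the arithmetic mean of the 4 arrays (median ratio 1.0000). No per-sample column was left out.

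Control spots and outlier spots (13 to 29 per array) were left out, saturated spots were kept, log2 values of replicate spots were averaged per probe, and the median of the array was subtracted. This gave 43603 probes, of which 34349 are in the report and 27505 received a gene name, from its gene ID (22099 probes, with current RefSeq symbols), its symbol (1621), an accession in the RefSeq table (2234) or an accession shared with a named probe (672 and 879). A spreadsheet had changed 47 of its symbols to dates. After placeholder names were set aside, 10822 genes remained. Of 719 list entries 12 were matched through the array design's own symbol. A gene was read from its probe with the highest mean.

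Slide 2 minus slide 1 was tested with limma 3.58.1 in R 4.3.3 on probes well above background on all 4 arrays, and the fit was tested on simulated data. Python 3.11.15 and pandas 2.3.3 served for the remaining steps. Named are genes of the lists, the 10 with the highest level, the 5 highest and 5 lowest slide differences among called genes, and the 5 with the largest SD over arrays and the widest range over probes. The members and lists were chosen with earlier results of these data known. Arrays give no read depth, and their number limits the precision. Alternatives were another flag, probe rule, scaling, background correction and filter, and leaving out each array. Some genes of the lists are not reported here.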

Additional observations from a re-analysis of the deposited data

Results flagged for a closer look

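Of 221 values tested, 8 had 1 array far from the other 3, where chance flags about 1 in 20 groups. The median signal of array 3 was 352.1 intensity units, and the nearest of the other arrays had 204.9. LEUTX (DBX1 in the array design) read 4.24 on array 3 and 3.98 on the nearest other array, TUBB3 read 6.70 on array 3 and 6.44 on the nearest, and LIN28A read 7.18 on array 3 and 6.40 on the nearest. On array 4, FGFR1 was high at 8.19 beside 7.59, NOTCH2 was low at -0.82 beside -0.08, and HOXD13 was high at -0.007 beside -4.55. FGF4, which was not above background on any array, read -4.37 on array 1 and -5.21 on the nearest.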

How the results depend on the processing

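No paired analysis was possible because only the DMSO arrays entered and arrays of the 2 slides share no numbers. The count of detected genes stayed within 1.5 times 9807 under every alternative run and was 9816 to 9943 with 1 array left out. Genes not above background numbered 369, 108 with the flag for positive and significant signal, 51 with the symbols of the authors' report alone, and 382 to 436 with 1 array left out. With that flag 14 HOX and hindbrain genes and 27 genes of other organs were detected, and with most of the probes required 5 and 6, and 8 blood genes. The other list counts moved less than 1.5 times under the alternatives run. The median level of detected genes was -0.023 with the 75th percentile subtracted, 2.27 with normexp, 1.31 with the median over probes (1557 bright and 3099 dim genes) and 2.55 to 2.66 with 1 array left out. Bright and dim counts were not run with the 75th percentile, whose zero differs. Normexp was planned on mean spot signals, which the files do not hold, and median spot signals were used, a choice made after seeing the data, as was counting each list with single arrays left out. The median SD between probes was 1.54 to 1.61 and that between arrays 0.279 to 0.331 with 1 array left out.

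Between the slides 6881 probes were called (4224 higher and 2657 lower on slide 2), and 12622 had an unadjusted p under 0.05. The count was 4473 after quantile normalization (2092 higher) and 3926 with no filter on dim probes (1295 higher), and 1174 were higher and 4132 lower with the 75th percentile, where the median shift moved to -0.07 from 0.20. With 1 array left out the count ran between 505 (without array 2) and 10411 (without array 4), with 93 to 5804 higher and 412 to 4607 lower. It was 673 without array 1, where 1 slide is a lone array assumed to vary like the other. Of 72 called genes among 197 followed, 13 lost their call with the 75th percentile, 23 after quantile normalization, 9 with normexp, 32 without the filter and 46, 52, 6 and 3 without arrays 1 to 4. For RPL7A the value was -0.36 after quantile normalization (adjusted p = 0.171), against a positive one with the array median, but its probe was saturated on both slide 1 arrays, so that neither sign is a measured direction. SOX2, not called with all arrays, was called in both directions with 1 array left out, at -0.76 without array 4 (adjusted p = 0.0334 by limma) and 0.72 without array 3 (adjusted p = 0.0424), where slide 2 is the other array alone.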

Other observations

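Of the 16098 probes without a gene name, 7555 (46.93%) were well above background on all 4 arrays, and of the 27505 named probes 23719 (86.24%) were. Among the 9254 probes outside the authors' report, 7523 (81.29%) were above background on no DMSO array.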
